A study of Mus musculus with 6 samples.

Results

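Genes of the mast cell, platelet and red blood cell lineages were examined in injured quadriceps muscle of wild-type (WT) and eosinophil-deficient mice. The members were fixed by name, as genes of lineages other than the eosinophil that depend on the transcription factor Gata1. All 10 of them are listed among the 14015 rows of the deposited table that carry a gene symbol. They were chosen with earlier results of these data known, so this count is no measure of how often such genes are detected. They are 5 mast cell genes (Tpsb2, Mcpt4, Cma1, Cpa3 and Kit), the platelet gene Pf4 and 4 adult globin genes (Hba-a1, Hba-a2, Hbb-bs and Hbb-bt). RNA with a poly(A) tail was sequenced from 3 WT mice on the C57BL/6 background and 3 mice labelled as GATA-1 mutant, the ΔdblGATA strain, in which a double GATA site in a promoter of Gata1 is deleted while its coding sequence is left in place. All 6 mice received volumetric muscle loss, a surgical removal of part of the quadriceps, without an implant. In such control injuries the gap was filled with sterile saline, and the muscle was frozen at day 7. The methods give the sex of the WT mice, which were female, as well as their age range and supplier. They give neither the age nor the origin of the mutants.

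Gata1 is a zinc finger factor that binds GATA words in DNA and is required for red blood cells, megakaryocytes (which shed platelets), mast cells and eosinophils to mature. Red blood cells carry globin messenger RNA over from their precursors, platelets carry RNA from megakaryocytes, and mast cells reside in the connective tissue of muscle, where their granules hold proteases bound to heparin. In whole muscle such transcripts can come from blood left in the vessels as well as from cells lying between the fibres, and a lower cell number cannot be told apart from less RNA per cell.

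The measurement used here is the authors' mean log2 CPM (read counts scaled to a common library size) of each gene, taken over all 6 samples and both genotypes together. No spread between mice belongs to such a mean, values per mouse were not analysed here, and the depth of each library is unknown. The table's columns for the authors' own comparison of the genotypes were not used, so that no difference between WT and ΔdblGATA mice is given. To compare genes with each other, each mean was divided by the length of the longest coding transcript of the gene and is then given as log2 CPM per kb. Over the 13945 genes with a known length the median was 2.28 log2 CPM per kb. All 12 fibre genes chosen as skeletal muscle markers were listed, with a median of 11.11 log2 CPM per kb. Of 10 eosinophil markers, 1 was listed, the ribonuclease gene Ear2 at 0.61 log2 CPM per kb, and Gata1 itself was not listed.

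The 10 genes separated by lineage. The 4 globins were the highest, Pf4 followed, and the 5 mast cell genes were the lowest. Per kb, 5 members lay above the median of all genes and 5 below it. Before division by length Pf4 lay below the median as well, at 3.77 against 4.03 log2 CPM. From Tpsb2 at -2.60 to Hbb-bs at 8.20 log2 CPM per kb, the members spanned 10.80 on the log2 scale. The lowest globin stood 0.99 above Pf4, and Pf4 stood 2.89 above the highest mast cell gene, Mcpt4, both as differences in log2 CPM per kb. The smallest gap between neighbours, 0.24 on this scale, was that between Hbb-bs and Hba-a2, followed by 0.34 between Mcpt4 and Cma1. Without a spread between mice no gap could be tested.

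**Figure D1:**
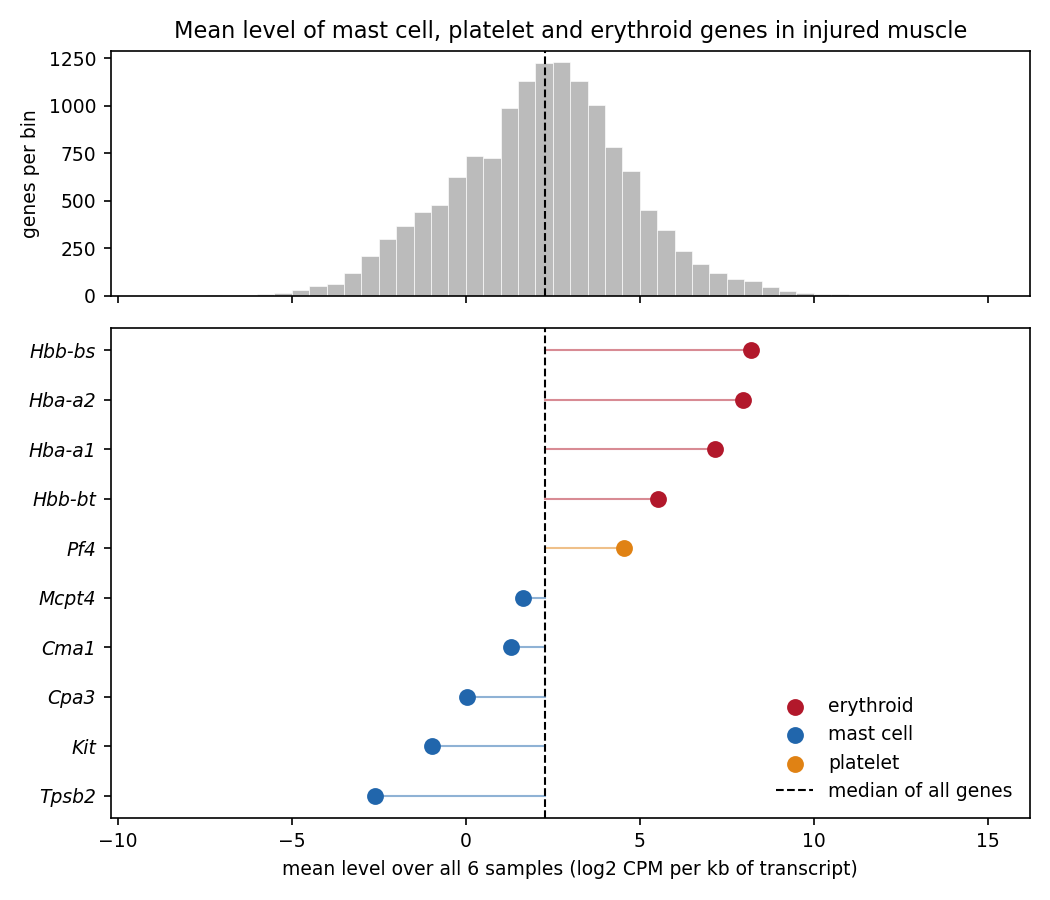
The lower panel plots each gene's mean level over all 6 samples in log2 CPM per kb of its longest coding transcript, coloured by lineage, and the upper panel counts all 13945 genes with a known length in bins of the same scale; the dashed line is their median of 2.28. The 4 globins and Pf4 lie above the line and the 5 mast cell genes below it, down to Tpsb2 at -2.60.

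Adult haemoglobin is built from α and β chains, each encoded by a pair of neighbouring genes. Hbb-bs (chromosome 7 of GRCm38, 103826534 to 103828096, minus strand), a β chain gene, had a mean of 7.53 log2 CPM, and its 8.20 log2 CPM per kb was higher than that of 98.7% of genes. Its neighbour Hbb-bt (chromosome 7, 103812524 to 103813996, minus strand) had a mean of 5.02 log2 CPM. Per kb Hbb-bs lay 6.38-fold above Hbb-bt, the largest distance within the globin pairs. The α chain genes Hba-a2 (chromosome 11, 32296489 to 32297298, plus strand) and Hba-a1 (chromosome 11, 32283511 to 32284465, plus strand) had means of 7.11 and 6.65 log2 CPM. These lay 0.80 apart in log2 CPM per kb, a 1.74-fold distance. Before division by length they lay 0.46 apart in log2 CPM. The rest of the distance comes from the annotated transcript lengths, 699 bases for Hba-a1 and 554 for Hba-a2. Summed over each pair after converting the means back to CPM, the α genes reached 238 CPM and the β genes 217 CPM, a ratio of 1.10. These sums were not divided by length, so the ratio does not compare α with β per kb.

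Within each pair the coding parts are nearly identical. In the annotated transcripts the coding parts of Hba-a1 and Hba-a2, 429 bases each, differ at 1 base, C381T, and those of Hbb-bs and Hbb-bt, 444 bases each, also at 1 base, C417T, both counted from the A of the start codon with the first-named gene's base first. The 60 coding bases around these positions are shown. To tell the copies apart, a read must cover the base in capitals or a part of the untranslated ends that differs.
Hba-a1: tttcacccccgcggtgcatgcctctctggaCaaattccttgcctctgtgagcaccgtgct
Hba-a2: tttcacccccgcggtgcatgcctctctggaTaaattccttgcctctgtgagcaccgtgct
Hbb-bs: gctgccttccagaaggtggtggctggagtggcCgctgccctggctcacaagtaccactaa
Hbb-bt: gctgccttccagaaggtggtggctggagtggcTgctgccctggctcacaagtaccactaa

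Counted over the whole transcript in words of 31 bases, Hba-a2 shared 477 of its 524 words (91.0%) with Hba-a1, which leaves 47 words of its own. Hba-a1 shared 478 of 669 words (71.4%) with other genes, of which 477 lie in Hba-a2 and 18 in the pseudogene Hba-ps4. Hbb-bs and Hbb-bt had 400 words in common, 66.9% of the words of Hbb-bs and 59.4% of those of Hbb-bt. That leaves 198 words of its own for Hbb-bs and 273 for Hbb-bt, and Hba-a1 has 191. As the coding parts within a pair are equally long, these counts depend on how long the untranslated ends are annotated. The level of each single globin gene is therefore uncertain, and the sum of each pair is the firmer value. A sum of means converted back from the log2 scale still depends somewhat on how reads were divided between the copies.

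**Figure D2:**
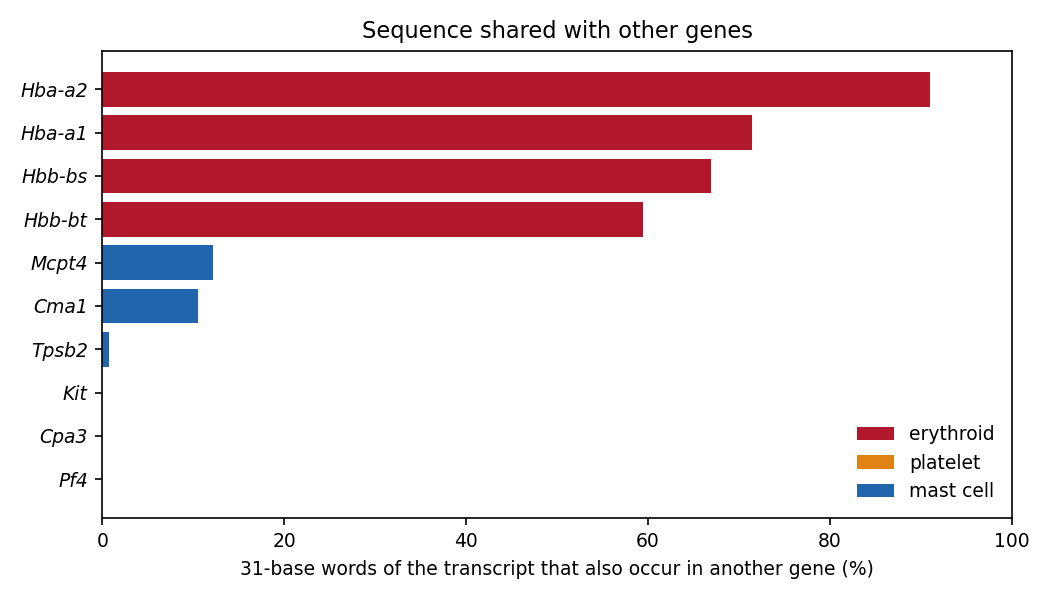
Bars give, for each gene, the percent of the 31-base words in its longest coding transcript that also occur in a transcript of another gene, on either strand, coloured by lineage. The 4 globins share between 59.4% and 91.0%, Mcpt4 and Cma1 share 12.2% and 10.6%, and Kit, Cpa3 and Pf4 none.

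Other genes of the red blood cell lineage were listed less evenly. Of 36 genes in the erythroid list, 20 were listed, the 4 globins among them, and the list's median was 3.35 log2 CPM per kb. Hbb-bs, Hba-a2 and Hba-a1 were the highest of the list, Ank1 followed at 6.16, above Hbb-bt, and the transferrin receptor gene Tfrc was at 5.08 log2 CPM per kb. Ank1 encodes an ankyrin with a short form known in muscle fibres, Tfrc is used by many dividing cells, and neither marks red blood cells alone. Of the 20 listed genes 13 lay above the median of all genes, among them Bpgm, which makes the 2,3-bisphosphoglycerate of red blood cells, at 4.83, the membrane skeleton gene Epb41 at 3.04 and the mitochondrial iron carrier gene Slc25a37 at 2.77 log2 CPM per kb. Others lay below it. Alas2, the erythroid enzyme of haem synthesis, was at 1.33 log2 CPM per kb, and the membrane gene Slc4a1 (band 3) was at -3.73, above 0.997% of genes. Klf1, Ahsp, Epb42, Rhag and Hemgn were not listed, nor were the embryonic globins Hba-x, Hbb-bh1 and Hbb-y.

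Pf4 (chromosome 5, 90772435 to 90773383, plus strand) encodes platelet factor 4, a CXC chemokine stored in platelet α granules that some macrophages also make. Its mean was 3.77 log2 CPM, and its 4.53 log2 CPM per kb was higher than that of 84.0% of genes. Without division by length its mean was higher than that of 45.2% of genes. Its place above the median thus depends on its short transcript of 588 bases. None of its 558 words occurs in another gene. It was the highest of the 16 listed genes among 26 of the platelet and megakaryocyte list, whose median was 0.16 log2 CPM per kb.
Ppbp, the companion chemokine gene of platelet granules, lay at -0.94 log2 CPM per kb, 44.4-fold under Pf4. The listed receptor genes of the platelet surface were at 1.49 (Itgb3), 0.31 (Itga2b), 0.09 (F2rl3), 0.02 (Gp1ba), -0.84 (Selp, also made by endothelium), -1.32 (Clec1b) and -1.98 (P2ry12) log2 CPM per kb. Gp5, Gp6, Gp9, Gp1bb, Treml1 and Tubb1 were not listed. Next to Pf4 in this list stood Thbs1 at 3.57, F13a1 at 3.41, Plek at 2.17 and Vwf at 2.13 log2 CPM per kb, all of which other cells also make. All 10 macrophage markers were listed, with a median of 4.34 log2 CPM per kb, near the level of Pf4. The part of macrophages in the level of Pf4 was not tested.

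The mast cell genes were all below the median of all genes. Mcpt4 (chromosome 14, 56059629 to 56062313, minus strand), a chymase of connective tissue mast cells, had the highest mean among them, 1.79 log2 CPM, and its 1.64 log2 CPM per kb was higher than that of 39.3% of genes. Cma1 (chromosome 14, 55941451 to 55944675, minus strand), another protease of the chymase locus, followed at 1.30 log2 CPM per kb. Mcpt4 shared 131 of its 1078 words (12.2%) with other genes, most with Cma2, and Cma1 shared 112 of 1060 (10.6%) with the annotated gene Gm48934. Cpa3 (chromosome 3, 20215620 to 20242181, minus strand), carboxypeptidase A of mast cell granules, was at 0.03 log2 CPM per kb. None of its 1419 words occurs in another gene, although a microRNA gene is annotated within its span.
Kit (chromosome 5, 75574916 to 75656722, plus strand), the receptor for stem cell factor on which mast cells depend, had a mean of 1.42 log2 CPM, level with that of Cma1. Its longest coding transcript has 5241 bases against 1090 for Cma1, and per kb Kit lay at -0.97, higher than 11.8% of genes. Here the order of the genes depends on whether length is taken into account.

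Tpsb2 (chromosome 17, 25366305 to 25369098, plus strand), which encodes a tryptase (mouse mast cell protease 6), had the lowest mean of the 10 genes, -2.23 log2 CPM or 0.213 CPM. Only 3.23% of genes had a lower level per kb, and Mcpt4 stood 18.9-fold above it on that scale. Tpsb2 shared 9 of its 1259 words with the neighbouring tryptase gene Tpsab1, which was not listed. A mean below 0 log2 CPM was found for 1198 genes (8.55%) and, among the members, for Tpsb2 alone. The methods state that a gene was kept if at least 3 samples were above 1 CPM, which is 0 on the log2 scale. If that holds on the scale of the means, the other 3 samples averaged below -4.46 log2 CPM for Tpsb2, so that its levels would be very uneven among the 6 mice. The same reasoning would place 3 samples of the lowest gene in the table below -8.15, and whether the minimum was applied to values on this scale could not be checked. Which mice were high or low cannot be read from a mean.

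Of 27 mast cell genes 15 were listed, with a median of 0.03 log2 CPM per kb. Among those that make or hold mediators, Hpgds (prostaglandin D2 synthase) was at 0.99, Hdc (histamine synthesis) at -0.69, Slc18a2 (the amine transporter of granules) at -0.84 and Ndst2 (heparin synthesis) at -4.15 log2 CPM per kb. The receptor chain gene Fcer1g stood highest at 4.91, but this chain also serves Fc receptors of macrophages and is the 1 gene of the list above the median of all genes. Fcer1a and Ms4a2, the other chains of the IgE receptor, were not listed, nor was Mrgprb2, a receptor of connective tissue mast cells. The proteases Mcpt1 and Mcpt2, typical of mucosal mast cells, were not listed either. Among 8 basophil genes 4 were listed, at a median of -0.12, while the basophil proteases Mcpt8 and Prss34 were not.

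**Figure D3:**
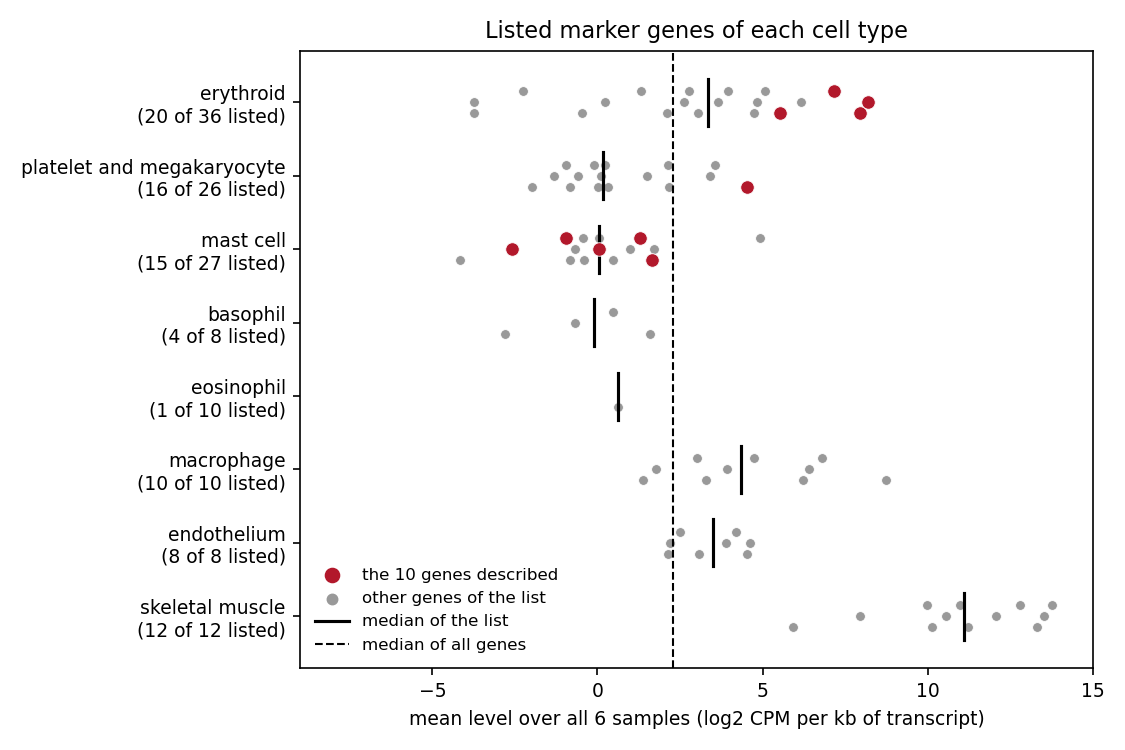
Each point is 1 listed gene of a marker list, placed by its mean level over all 6 samples in log2 CPM per kb; red points are the 10 genes described, grey points the other genes, short lines the list medians and the dashed line the median of all genes, 2.28. Of the 4 globins 3 lead the erythroid list, with Ank1 at 6.16 above Hbb-bt, Pf4 leads the platelet list, the mast cell members lie among the other mast cell genes, and the skeletal muscle genes stand furthest to the right, with a median of 11.11.

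The transcription factors chosen as partners of Gata1 were listed in part. Of 15 factors 11 were listed, with a median of 2.08 log2 CPM per kb. Gata2, the related factor of mast cells and blood progenitors, was at 0.46 log2 CPM per kb, its partner Zfpm1 (FOG-1) at 1.25 and Tal1 at -0.74. The cofactors Ldb1 and Lmo2 were at 3.99 and 3.80, and Cebpa stood highest of the list at 4.87 log2 CPM per kb. Gata1, Klf1, Gfi1b and Nfe2 were not listed. Among the growth factors, Kitl, the ligand of Kit, was at 1.98 and Thpo, the growth factor of megakaryocytes, at -0.16 log2 CPM per kb. The receptor gene Epor was at -0.47, and Epo was not listed.

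GATA words were looked for in the promoters because Gata1 binds them. The letters GATA, preceded by A or T and followed by A or G, were searched on both strands in RefSeq promoters (GRCm38.p6), from 250 bases before to 50 after the start, which were held for 9 of the 10 genes, all but Tpsb2. At least 1 word was found for 7 of 9, against 33.0% of all 27025 genes with such a promoter and 22.1% of the 10365 that are also listed. The members were named as genes that depend on Gata1, and base composition was not matched, so this contrast is no test. Hbb-bt and Kit held none in this window, and the word of Pf4 lies after the start. Hba-a1 and Hba-a2 are copies, so their matches are not separate. For the 6 genes whose word lies before the start, the 30 bases around the word, given in capitals, run 5′ to 3′ on the strand of the gene; in Cma1 the word is on the opposite strand.
Hbb-bs (chr7:103828121-103828150, minus): tgttctctgcacAGATAAggacaaacatta
Hba-a1 (chr11:32283477-32283506, plus): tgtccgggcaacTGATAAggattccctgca
Hba-a2 (chr11:32296294-32296323, plus): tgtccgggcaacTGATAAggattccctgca
Cpa3 (chr3:20242210-20242239, minus): agctgttcgtcgAGATAAaagctgaggtat
Mcpt4 (chr14:56062396-56062425, minus): catgagaatttcTGATAAggaaagtagagc
Cma1 (chr14:55944737-55944766, minus): acagttgaggacCTATCTgagtatctggga

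The word begins 46 bases before the RefSeq start in Cpa3, 79 in Cma1, 103 in Mcpt4, 183 in Hba-a1, 186 in Hba-a2 and 210 in Hbb-bs. The gene spans given above are those of GENCODE and may begin elsewhere: counted to them, the word lies 22 bases before the start in Hba-a1 and 42 in Hbb-bs. The word CACCC, read by Krüppel-like factors such as Klf1, was present in 6 of the 9 promoters (66.7%). It was present in those of 59.8% of all genes and 67.6% of listed genes, so the members' share was near that of listed genes. The 6 are the 4 globins, Kit and Mcpt4. A match of letters is a description of the sequence and not a measured binding site.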

How the data were processed

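Poly(A) RNA of injured quadriceps from 3 WT and 3 ΔdblGATA mice was sequenced. The authors pseudoaligned paired-end reads with kallisto, summed transcripts to genes, converted them to CPM with edgeR, dropped genes that did not exceed 1 CPM in 3 or more samples, applied TMM normalization and fitted limma. The submitters' processing notes name GRCm39 (mm39); the transcript index and tool versions are not given in the sources used here. Of the deposited table, the authors' mean log2 CPM over all 6 samples was used. Its 5 columns of the authors' genotype comparison (log2 fold change, moderated t, p-value, adjusted p-value and log-odds) were not used. The limma test planned for values per mouse was therefore not run, and there are no p-values. Depth per sample is unknown, and 6 samples limit the precision of a mean.

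Symbols were matched to GENCODE M21 (GRCm38, another build than the authors'), 13458 directly and 487 through older symbols, which gave lengths for 99.5% of genes. Gene spans are from that annotation, promoters and their starts from RefSeq (GRCm38.p6). Shared sequence was counted in words of 31 bases, on both strands. Calculations used Python 3.11.15 with pandas 2.3.3, and the functions were tested on simulated data. Marker lists and members were chosen with earlier results of these data known; all 10 members are named, and any gene of a list could be named. Genes not listed either did not pass the authors' filter or carry a name that was not matched; Epb41 and Adgre1 were matched through older symbols. Of the lists, neutrophil (5 of 10 listed), endothelium (8 of 8) and growth factor genes (9 of 17) had medians of 0.45, 3.49 and 0.48 log2 CPM per kb.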

Additional observations from a re-analysis of the deposited data

How the results depend on the processing

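No paired analysis was possible because a mean over all samples was the only value used. The planned genotype test, its other trends, normalizations, pseudocounts and filters, the fits without each mouse and the count test were not run either. With a mean of at least 1 log2 CPM 8 of the 10 genes remained, and with at least 3 log2 CPM 5 remained, the 4 globins and Pf4. Taking the median transcript length in place of the longest coding transcript moved the median level of the 10 genes from 3.09 to 3.34 log2 CPM per kb; it raised 8 of the genes, Kit by the most (1.41), and left their order as it was. The longest transcript of any kind changed none of the levels. The median percentile of the 10 genes was 61.6 among all genes, 61.3 among protein-coding genes and 33.2 without division by length, which the members' short transcripts account for by construction. With AGATAA and TGATAA alone, 66.7% of the 9 promoters held a GATA word in place of 77.8%, and so did those of 20.96% of all genes and 12.3% of listed genes in place of 33.0% and 22.1%.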
